A study of Mus musculus with 12 samples.

Results

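Open chromatin was compared between mutant cells with high and with intermediate amounts of FoxA2 in mouse embryos at embryonic day 7.5. FoxA2 here lacked 10 residues of an alpha helix (dHx) and was fused to the red fluorescent protein tagRFP, whose signal in single cells was used to sort them. The comparison used 4 of the 12 samples of the series, namely 2 of the High gate and 2 of the Middle gate. Each gate was represented by 1 list of ATAC-seq peaks made from its pooled samples, with 36070 peaks on the autosomes in dHx High and 37611 in dHx Middle, together 73681 of the 249098 autosomal peaks in the 6 lists of the series. Lines with the same start and end were merged into 1 peak, and peaks of both lists that overlapped by at least 1 bp were called shared. A dHx High peak without a shared dHx Middle peak is called High-only below, and a dHx Middle peak without a shared dHx High peak is called Middle-only.

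All embryos were homozygous for the tagged allele, on a mixed C57Bl6/J x CD-1 background, so the mutant cells of both gates held no untagged FoxA2. The series also sorted embryos with the same tag on full-length FoxA2 (WT), and it took a Negative gate from each genotype, giving 6 groups of 2 samples. Per the labels' protocols, about 10 embryos of both sexes were pooled for a sort, the part outside the embryo proper had been cut away, and 2000 to 5000 cells went into a library. The Middle gate reached up to the brightest heterozygous cells and the High gate began above them, so the gates cut a continuous range of FoxA2-tagRFP signal and were not set on a cell type.

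FoxA2 belongs to the forkhead family of transcription factors and acts in endoderm, node and notochord. It is known as a pioneer factor, able to bind its sites in closed chromatin and to help open them. At this stage cells of the definitive endoderm and the visceral endoderm lie together in the outer layer of the embryo, and both express FoxA2, as does the node. Visceral endoderm is known for the uptake and transport of nutrients, through the receptors cubilin (Cubn) and megalin (Lrp2), their adaptor Dab2 and the nuclear receptor Hnf4a.

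Promoters of visceral endoderm and epithelial genes that lay under a peak of only 1 of the dHx lists are shown first, as chosen examples. Most peaks of only 1 dHx list lay away from gene starts, as given below. The sequences are RefSeq promoters on GRCm38.p6, the assembly that mm10 names, printed 5′ to 3′ on the gene's strand up to the base before the gene body. Capitals mark each CG, except for Fgb (fibrinogen beta chain), where they mark the only forkhead match. The first 3 lay under a Middle-only peak. Hnf4a is given at chr2:163506607-163506810 on the plus strand, Cubn at chr2:13491877-13492126 and Fgb at chr3:83049864-83050113, both on the minus strand.
Hnf4a: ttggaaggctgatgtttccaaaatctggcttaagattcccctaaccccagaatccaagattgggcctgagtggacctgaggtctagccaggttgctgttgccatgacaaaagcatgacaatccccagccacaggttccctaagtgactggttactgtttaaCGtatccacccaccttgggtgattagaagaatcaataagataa
Cubn: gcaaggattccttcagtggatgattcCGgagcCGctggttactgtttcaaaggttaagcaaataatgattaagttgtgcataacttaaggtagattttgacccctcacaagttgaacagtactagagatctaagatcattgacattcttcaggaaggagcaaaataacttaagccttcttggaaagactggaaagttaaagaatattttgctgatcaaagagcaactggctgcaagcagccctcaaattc
Fgb: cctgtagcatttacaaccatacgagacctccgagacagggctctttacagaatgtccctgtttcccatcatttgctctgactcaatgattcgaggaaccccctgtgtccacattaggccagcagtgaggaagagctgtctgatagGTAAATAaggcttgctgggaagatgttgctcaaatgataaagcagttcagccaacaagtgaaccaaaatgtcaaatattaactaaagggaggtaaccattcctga
The other 2 lay under a High-only peak, Lrp2 at chr2:69586030-69586279 and Cldn4 (claudin 4, a tight junction protein) at chr5:134946935-134947184, both on the minus strand.
Lrp2: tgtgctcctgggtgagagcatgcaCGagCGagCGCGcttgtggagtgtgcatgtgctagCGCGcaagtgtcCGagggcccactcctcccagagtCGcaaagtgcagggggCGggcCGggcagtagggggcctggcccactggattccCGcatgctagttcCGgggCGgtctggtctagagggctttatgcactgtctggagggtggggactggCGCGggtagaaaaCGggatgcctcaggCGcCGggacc
Cldn4: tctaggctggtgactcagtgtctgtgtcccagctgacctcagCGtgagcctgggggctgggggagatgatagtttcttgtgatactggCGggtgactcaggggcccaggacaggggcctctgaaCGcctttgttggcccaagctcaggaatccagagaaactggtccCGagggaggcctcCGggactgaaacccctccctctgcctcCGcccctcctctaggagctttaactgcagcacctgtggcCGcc
These stretches held 1 CG in 204 bases for Hnf4a, and per 250 bases 2 for Cubn, 3 for Fgb, 18 for Lrp2 and 7 for Cldn4. Among the promoters of listed genes named below, CG counts did not divide by side. Over all promoters of each class, counted in 300 bases, the median was 20 under High-only and 12 under Middle-only top peaks. The match in Fgb reads GTAAATA, the reverse complement of TATTTAC, and its first base lies at position -105 relative to the start.

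Most strong open regions were common to both gates. Of all dHx High peaks, 13932 of 36070 were High-only (38.6%, 95% interval 38.1 to 39.1), and of all dHx Middle peaks, 15294 of 37611 were Middle-only (40.7%, 40.2 to 41.2). Among the 20000 peaks with the highest score in their list, called top peaks below and looked up in the whole other list, 3954 were High-only (19.8%, 19.2 to 20.3) and 4748 Middle-only (23.7%, 23.2 to 24.3). The same lookup in WT embryos left 17.6% of WT High peaks and 22.8% of WT Middle peaks without a partner. Intervals here and below are Clopper-Pearson and cover counting error only. With 1 pooled list per gate there were no replicates, so no difference between gates was tested, and fewer cells with an open region cannot be told apart from less opening in each cell.

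The score is the authors' own value for each peak, read as a −log10 p or q, and it served only to rank peaks within a list. Peaks in 1 list only were the weaker and narrower ones. The top High-only peaks had a median width of 406 bp against 672 bp for the top shared peaks of dHx High, and the Middle-only ones 434 bp against 620 bp. High-only peaks made up 73.6% of the weakest decile of the dHx High list and 2.19% of its strongest decile. In dHx Middle the shares went from 71.5% in the weakest decile to 7.18% in the strongest, so the unshared share was higher in dHx Middle at the strong end. The 20000th peak had a score of 6.02 in dHx High, where 45.5% of the top peaks at that score were High-only, against 55.4% at the next lower score of 4.83. In dHx Middle it had a score of 6.40, with 44.4% Middle-only, against 50.3% at the next lower score of 5.33. A background fitted to the scores also differed between the gates, and it stands for depth only if the peak caller ran with equal settings, which are not known. It was 0.476 (range 0.448 to 0.503) in dHx High and 0.786 (0.744 to 0.828) in dHx Middle, 1.65 times as high, and in WT the Middle background was 1.71 times that of High. Its part in the shares was not tested.

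**Figure D1:**
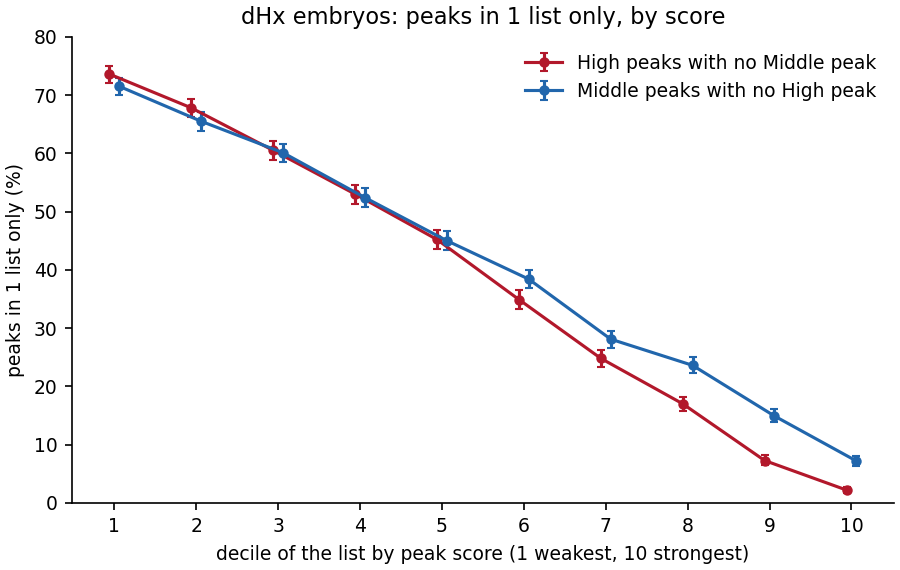
Share of dHx High peaks with no dHx Middle peak (red) and of dHx Middle peaks with no dHx High peak (blue), in percent, by decile of the list ranked on the peak score, from weakest to strongest. Bars are 95% Clopper-Pearson intervals. The red points run from 73.6% down to 2.19% and the blue points from 71.5% to 7.18%, and in the strongest decile the dHx Middle point (7.18%) lies above the dHx High point (2.19%).

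The strongest peaks of the 2 classes were mostly present elsewhere in the series. Of the 10 High-only peaks with the highest score, 9 had a peak in 3 or 4 of the other 4 lists. The first was at chr2:92093392-92093786, 69.2 kb outside Creb3l1, a transcription factor of the secretory pathway, with peaks in WT Middle and both Negative lists. The peak at chr7:34958172-34958453 inside Pepd (a dipeptidase) was in no other list. Of the 10 strongest Middle-only peaks, 7 were in 3 or 4 other lists, among them one at chr8:83756773-83757157, 15.5 kb outside Adgre5 (an adhesion receptor), and one at chr2:80383097-80384191, 27.8 kb outside Frzb, a secreted Wnt antagonist. The Frzb peak was in all 4 other lists.

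Regions open in 1 mutant gate were found more often in the same gate of WT embryos, whose lists had no part in choosing them. Of the 3954 top High-only peaks, 59.7% (58.2 to 61.3) had a WT High peak and 41.9% (40.4 to 43.5) a WT Middle peak. Of the 4748 top Middle-only peaks, 46.0% (44.6 to 47.4) had a WT High peak and 70.0% (68.7 to 71.3) a WT Middle peak. Peaks present in 1 of the WT gates divided the classes further. A peak in WT High and none in WT Middle overlapped 1159 High-only peaks (29.3%) and 498 Middle-only peaks (10.5%). The reverse, a peak in WT Middle and none in WT High, overlapped 454 High-only peaks (11.5%) and 1638 Middle-only peaks (34.5%). Neither WT list of FoxA2-positive cells held 28.8% of the High-only and 19.5% of the Middle-only peaks, and 18.5% and 12.5% were in no list but their own.

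The Negative lists held fewer of the High-only regions than WT High did, and fewer of the Middle-only regions than WT Middle did. A WT Negative peak overlapped 39.8% of the top High-only and 38.9% of the top Middle-only peaks, and a dHx Negative peak overlapped 49.0% and 46.7%, against 41.9% in WT Middle and 46.0% in WT High. Shared top peaks were found far more often, in WT High at 93.4% of those of dHx High, in WT Middle at 92.8% of those of dHx Middle, and in WT Negative at 79.2% and 78.1%. The background fitted to the scores, described above, ran from 0.879 in WT High to 1.57 in dHx Negative, and its part in these shares was not tested.

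**Figure D2:**
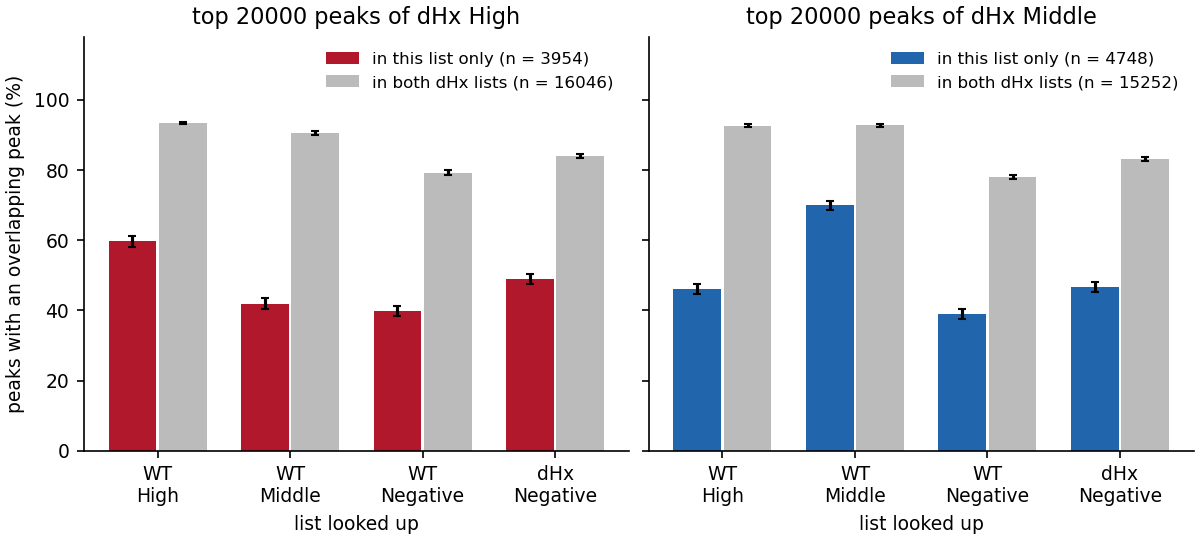
Percent of the top 20000 dHx High peaks (left) and dHx Middle peaks (right) that overlap a peak in each of the 4 lists not used to choose them, for peaks in 1 dHx list only (coloured bars) and in both (grey bars), with 95% Clopper-Pearson intervals. Among the coloured bars, WT High is the tallest for dHx High (59.7%) and WT Middle for dHx Middle (70.0%).

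Regions at gene starts were shared far more than regions elsewhere, and those that were not shared were mostly High-only. Within 1 kb of a RefSeq gene start, 892 of 9077 top dHx High peaks were High-only (9.83%), against 28.0% of the 10923 elsewhere. In dHx Middle, 281 of 7421 near a start were Middle-only (3.79%), against 35.5% of the 12579 elsewhere. Seen from the classes, 22.6% of the High-only and 5.92% of the Middle-only top peaks lay near a start, while 40.6% and 44.8% lay inside a gene away from a start, and 27.5% and 37.0% outside a gene but within 100 kb. Of the High-only peaks near a start, 73.5% had a WT High peak and 55.0% a WT Middle peak. Of the Middle-only peaks near a start, 61.2% had a WT High peak and 70.5% a WT Middle peak. The WT gates had the same order, with 14.0% of the WT High-only and 6.08% of the WT Middle-only top peaks near a start. Starts were known for 16456 of 20661 genes (79.6%). For the remaining genes, peaks within 1 kb of either gene end were counted as near a start.

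**Figure D3:**
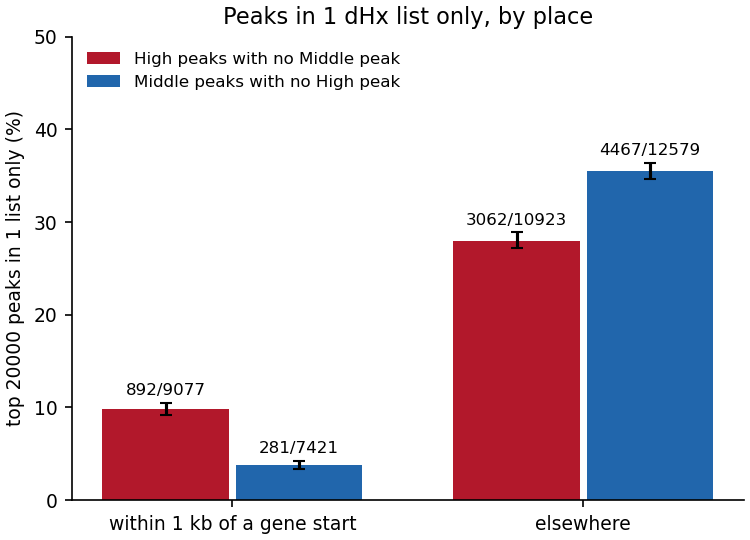
Percent of the top 20000 peaks of dHx High (red) and dHx Middle (blue) that are in 1 dHx list only, for peaks within 1 kb of a RefSeq gene start and for all others, with 95% Clopper-Pearson intervals and the counts above the bars. Where no start was listed for a gene, either gene end counted as a start. Near starts the dHx High share is the higher (9.83% against 3.79%), and elsewhere the dHx Middle share is (35.5% against 28.0%).

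Promoters under High-only peaks had more CG pairs than the median promoter, and those under Middle-only peaks were near that median. Over 300 bases, from 250 before the start to 50 after it, a peak overlapped 10715 of 20084 promoters (53.4%) in dHx High and 9636 (48.0%) in dHx Middle. The median number of CG pairs was 23 in the 8950 promoters with a peak in both lists, 20 in the 619 with a top High-only peak, 12 in the 146 with a top Middle-only peak and 3 in the 8683 with a peak in neither. It was 18 in the remaining 1686 promoters, with weaker or mixed peaks, and 14 over all 20084. Forkhead letters were searched on both strands. The consensus TGTTTAC together with the single-base variant TATTTAC and the further variant TGTTTGC occurred in 9.79% of all promoters of this length. They occurred in 5.82% (4.11 to 7.96) of the promoters under High-only peaks, 10.3% (5.87 to 16.4) of those under Middle-only peaks, 6.42% of those under shared peaks and 13.8% of those under none. The letters were more frequent in the 2 classes with fewer CG pairs, and a match is not a binding site.

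Listed genes stood on both sides. Promoters under a Middle-only top peak included Cubn, Fgb, both listed starts of Hnf4a, Lamb1 (laminin beta 1 of basement membranes), Tjp1 (the tight junction scaffold ZO-1), Dynlrb2 (a dynein light chain of cilia), Utf1 (a chromatin factor of pluripotent cells) and Egfl7 (a secreted endothelial protein). Under a High-only top peak were the promoters of Lrp2, Cldn4, Marveld2 (tricellulin, also a tight junction protein), the Wnt ligands Wnt2 and Wnt3, the cardiac factor Nkx2-5, the trophoblast factor Gcm1 and the ribosomal gene Rplp0. The High-only top peaks of Lrp2, Cldn4, Wnt3 and Rplp0 were also in all 4 other lists, and only dHx Middle lacked them. Those of Marveld2 and Wnt2 were in both WT lists, and that of Nkx2-5 was in no other list. On the Middle side, the Middle-only top peaks of Lamb1 and Dynlrb2 were in all 4 other lists. Within the members named here CG counts did not divide by side. Over the 300 bases, Middle-only promoters ranged from 4 at Hnf4a to 31 at Tjp1 and Egfl7, and High-only promoters from 1 at Gcm1 to 27 at Wnt2.

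Every gene was next given the peaks nearest to it within 100 kb, which assigned 13051 genes at least 1 top peak. More High-only than Middle-only peaks were found at 2303 genes (17.6%), more Middle-only at 2496 (19.1%) and equal numbers at 8252. Over all assigned top peaks, 19.1% were High-only and 22.6% Middle-only, the values against which the gene lists below are read. The lists were compiled from textbook markers and were chosen with earlier results of these data known, so their counts are descriptions.

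Visceral endoderm loci lay most to the Middle side of the 10 lists. Of their 45 top dHx Middle peaks, 20 were Middle-only (44.4%, 29.6 to 60.0), of which Hnf4a alone gave 6. Of their 31 top dHx High peaks, 8 were High-only (25.8%, 11.9 to 44.6). Hnf4a held 7 of the 45, and the intervals treat peaks of 1 gene as separate counts. Of the 20 genes with a top peak, 8 had more Middle-only peaks, 2 more High-only and 10 equal numbers. In the whole lists the counts were 52 of 98 (53.1%) against 23 of 69 (33.3%), with 17 genes to the Middle side and 4 to the High side. WT embryos gave 20 of 50 (40%) Middle-only against 7 of 36 (19.4%) High-only. Measured from the share over all assigned peaks of each gate, the Middle excess at these loci was 15.2 percentage points in dHx and 15.1 in WT. In WT the primitive streak list (14.2) and the extraembryonic ectoderm list (13.9) had nearly as much, against -2.33 and -1.78 in dHx. Of the 20 Middle-only peaks, 18 had a WT Middle peak, 6 a WT High peak and 5 a peak in each of the Negative lists, while all 8 High-only peaks had a WT High peak and 2 a WT Middle peak. Part of the visceral endoderm covers the extraembryonic region, which was removed, and the number of visceral endoderm cells in each gate was not measured.

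Hnf4a, a nuclear receptor that controls lipid and nutrient genes of visceral endoderm and liver (mm10, chromosome 2, 163506811 to 163572907), showed the most Middle-only top peaks of that list. It had 7 top peaks in dHx Middle and none in dHx High, where its only peak was weak (score 4.83), at 163540482-163540859 inside the gene, and shared. The other 6 dHx Middle peaks were Middle-only, including those at both promoters, 163506623-163507048 and 163547028-163547277. Inside the gene they lay at 163541454-163542200, 163555105-163555768, 163559342-163559638 and 163560292-163560616. The 4 inside peaks away from the starts all had a WT Middle peak and 1 of them a WT High peak, and the 2 promoter peaks were in no other list. No peak of either Negative list was assigned to Hnf4a, against 2 in WT High and 5 in WT Middle.

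Other members of the list went in both directions. Dab2, the endocytic adaptor of the cubilin and megalin complex, had 3 Middle-only of 6 top dHx Middle peaks and no High-only among 2. The Dab2 peak at chr15:6440646-6442323, at the edge of the gene, was the widest of the 3 (1678 bp) and was also in WT Middle and in no further list. Cubn had 2 Middle-only of 2 and 2 High-only of 2 top peaks, with the promoter on the Middle side and 2 neighbouring peaks inside the gene, chr2:13371550-13371907 and chr2:13372358-13372737, on the High side. Gata6, a zinc finger factor of primitive and definitive endoderm, had 2 High-only of 3 top dHx High peaks and no top dHx Middle peak. The gene of transferrin, Trf, had 1 top peak, in dHx High, and it was High-only. The Fgb promoter peak, chr3:83049813-83050191, was the only peak of that gene in either dHx list and was also in WT Middle.

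**Figure D4:**
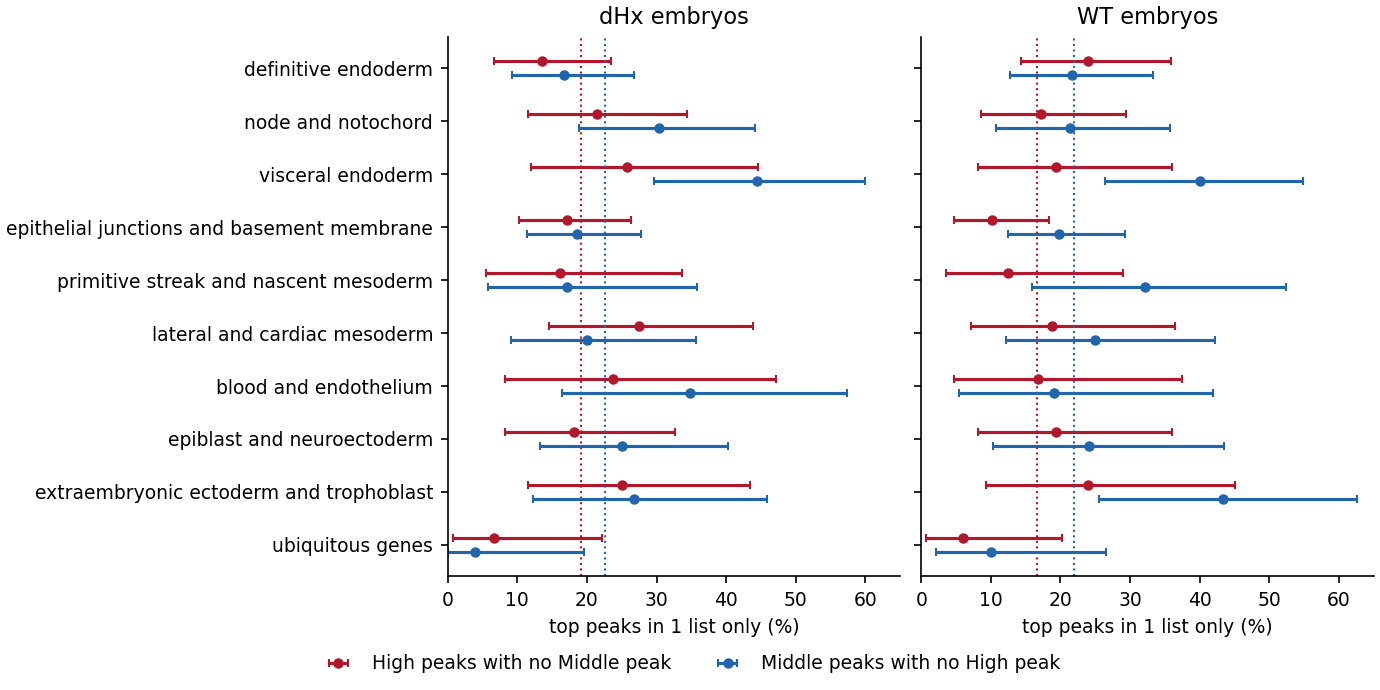
Percent of top peaks assigned to each gene list that are in 1 gate's list only, in dHx (left) and WT embryos (right): High peaks with no Middle peak in red, Middle peaks with no High peak in blue, with 95% Clopper-Pearson intervals. Dotted lines are the shares over all assigned top peaks (19.1% and 22.6% in dHx). For visceral endoderm the blue point lies to the right of the red one in both panels (44.4% and 25.8% in dHx, 40% and 19.4% in WT).

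Definitive endoderm loci had shares near those over all assigned peaks, which lie within both intervals. Of their top peaks, 10 of 74 were High-only (13.5%, 6.68 to 23.5) and 13 of 78 Middle-only (16.7%, 9.18 to 26.8), where High-only peaks prevailed at 4 genes, Middle-only peaks at 5 and neither at 20. The list had more peaks in the FoxA2-positive gates, 149 in dHx High and 163 in dHx Middle, than in dHx Negative (106) or WT Negative (99). Of its 10 High-only peaks, 9 had a WT High and 2 a WT Middle peak, and of its 13 Middle-only peaks, 4 had a WT High and 11 a WT Middle peak.

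Single genes of this list differed between gates by few peaks. Rbm47, an RNA-binding protein that edits and stabilises transcripts in endoderm, had 2 High-only of 5 and 4 Middle-only of 8 top peaks. The stronger of its High-only peaks, chr5:66202575-66203064, was 50.6 kb from the gene and overlapped peaks of WT High and both Negative lists but not in WT Middle. Epcam, an epithelial adhesion molecule, had no High-only top peak and 2 Middle-only of 3, 68.4 and 65.6 kb outside the gene and both with a WT Middle peak. Emb (embigin, a partner of lactate transporters) had all 5 of its top dHx High peaks shared and 2 Middle-only of 8. Sox17, a factor that specifies endoderm, had 1 High-only of 3 top peaks at chr1:4454724-4454976, also in WT High alone, and 1 Middle-only of 4 at chr1:4538322-4538649, also in WT Middle alone. Sox17 was named after its values were seen.

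At node and notochord loci the shares were also near those over all assigned peaks, which both intervals hold. Of their top peaks, 12 of 56 were High-only (21.4%, 11.6 to 34.4) and 17 of 56 Middle-only (30.4%, 18.8 to 44.1), and High-only peaks prevailed at 6 genes, Middle-only peaks at 8 and neither at 12. In the whole lists the higher share changed sides. Sox9, a factor of the notochord and cartilage, had 3 High-only of 6 top peaks, between 23.3 and 52.4 kb outside the gene, and 1 Middle-only of 4. Bicc1, an RNA-binding protein of the node, had 1 High-only of 2 and 3 Middle-only of 5, but 3 of 5 in each list with all peaks tied at the 20000th score kept. The hedgehog receptor Ptch1 had no High-only peak among 3 and 2 Middle-only of 6 top peaks. In the whole lists it had 4 High-only of 9 and 2 Middle-only of 7. Both top Dynlrb2 peaks of dHx Middle were Middle-only, 1 of them at the promoter, and both were present in all 4 other lists. In the whole lists Dynlrb2 had 2 High-only of 2 and 2 Middle-only of 2. Chrd, the BMP antagonist chordin, and Rfx3, a factor for cilia, each had 1 High-only and no Middle-only top peak. In the whole lists Chrd had 2 High-only of 2 and 1 Middle-only of 2, and Rfx3 had 1 of 2 on each side.

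Foxa2 itself (mm10, chromosome 2, 148042877 to 148046969) had peaks at many sites around it in both gates, 16 in the whole dHx High list and 20 in the whole dHx Middle list. It had 10 top peaks in dHx High, of which 1 was High-only, and 18 in dHx Middle, of which 4 were Middle-only. Its start lay under a shared peak, 148045181-148047119 in dHx High and 148045537-148047071 in dHx Middle. The High-only peak at 148068991-148069220 was in no other list. Among the Middle-only peaks, 148030198-148030678 was also in WT Middle and dHx Negative, and 148061508-148061861 in WT Middle alone, so neither was in WT High. The peak at 148114552-148114887 was in WT High and WT Negative, and 147974882-147975250 was in no other list. WT embryos had no WT High-only and 5 WT Middle-only top peaks at Foxa2. The deletion in the dHx allele cannot be seen in peak lists, so they do not check the genotype.

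Epithelial junction and basement membrane genes had nearly equal shares, 16 of 93 top peaks High-only (17.2%) and 18 of 97 Middle-only (18.6%), where 12 genes leaned to High, 9 to Middle and 15 to neither. The basement membrane genes with the most unshared top peaks stood on both sides, by few peaks. Col4a2, a chain of collagen IV, had 5 Middle-only of 7 top peaks and no High-only among 2, and Lamb1 3 of 3 with no top dHx High peak. Hspg2 (perlecan, a proteoglycan of the same membranes) had 2 High-only of 5 and no Middle-only among 2. Of the 5 Col4a2 peaks, 3 had a WT Middle peak and 1 a WT High peak. All 3 Lamb1 peaks were in all 4 other lists, and both Hspg2 peaks were in both WT lists and WT Negative. In WT, High-only and Middle-only top peaks numbered 1 and 1 at Col4a2, 0 and 1 at Lamb1, and 0 and 1 at Hspg2. Of the junction genes, Magi1 had 3 High-only of 6 and none of 4 Middle-only top peaks, and Tjp1 2 of 5 and 1 of 2. The polarity factor Pard3 had none of 4 and 2 of 11. In the whole lists Magi1 had 7 of 13 and 7 of 14, and Tjp1 5 of 9 and 1 of 5. Pard3 had 4 of 14 and 7 of 17 there. In WT, High-only and Middle-only top peaks numbered 1 and 3 at Magi1, 0 and 1 at Tjp1, and 1 and 0 at Pard3.

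Loci of other tissues the gates could hold were described the same way. For lateral and cardiac mesoderm the High-only share was the higher, 11 of 40 (27.5%, 14.6 to 43.9) against 8 of 40 (20.0%, 9.05 to 35.6), where 8 genes leaned to High and 4 to Middle. Both intervals hold the shares over all assigned peaks. WT embryos had the reverse order, with 6 of 32 top peaks WT High-only and 9 of 36 WT Middle-only. Measured from the share over all assigned peaks of each gate, the Middle excess was -10.9 percentage points in dHx and 0.794 in WT. Mef2c and Smarcd3, both active in the early heart field, had 2 High-only of 4 and 2 of 3 top peaks. Neither had a Middle-only top peak, but in the whole lists Mef2c had 3 High-only of 5 and 3 Middle-only of 5. Pdgfra, a growth factor receptor of mesoderm, had 1 High-only of 1 and 3 Middle-only of 4 top peaks. With all peaks tied at the 20000th score kept, Pdgfra had 3 High-only of 4 and 3 Middle-only of 4. Of the 11 High-only peaks in this list 4 had a WT High peak and 8 a dHx Negative peak. Blood and endothelium loci were High-only in 5 of 21 and Middle-only in 8 of 23 cases, with Flt1, a VEGF receptor, at 3 Middle-only of 5. Epiblast and neuroectoderm loci were High-only in 8 of 44 and Middle-only in 11 of 44, with Pax6 at 2 High-only of 5. Primitive streak loci gave 5 of 31 and 5 of 29, extraembryonic ectoderm loci 8 of 32 and 8 of 30, and ubiquitous genes 2 of 30 and 1 of 26. In the extraembryonic list Ets2 had 3 Middle-only of 4 top peaks, while Gata3 had 2 High-only of 6 and Gcm1 2 of 2. The ubiquitous genes had the lowest shares of the 10 lists. The cell types in each gate were not counted, and their part in these shares was not tested.

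Genome-wide, the genes with the largest excess of High-only top peaks were Creb3l1, Tox2 and Camk1d, each with 6 High-only and no Middle-only peak. Tox2, an HMG-box factor (mm10, chromosome 2, 163203058 to 163324172), had 7 top dHx High peaks, and the only shared one lay at 163204051-163204652 near its start. Of the 6 High-only Tox2 peaks, 4 had a WT High peak and none a WT Middle peak. Creb3l1 was different, as 1 of its 6 High-only peaks had a WT High peak and 5 had a peak in each Negative list. At Camk1d, a calcium-dependent kinase, 4 of the 6 High-only peaks were in no other list. Gli2, a transcription factor of hedgehog signalling, had 5 High-only of 6 top dHx High peaks and 1 Middle-only of 1. Also among the 10 were Meis2, Cacna1b, Agap1, Aff3, Tbc1d4 and Kank1, each with a net of 4. Of these 10 genes 8 lie on chromosomes 1 and 2. Ties bear on this, because 3320 dHx High peaks share the score of the 20000th, and the 785 kept were those on chromosomes 1 to 4. With all tied peaks kept, the 10 stay at a net of 4 or more, where the number of such genes is 20 in place of 11.

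**Figure D5:**
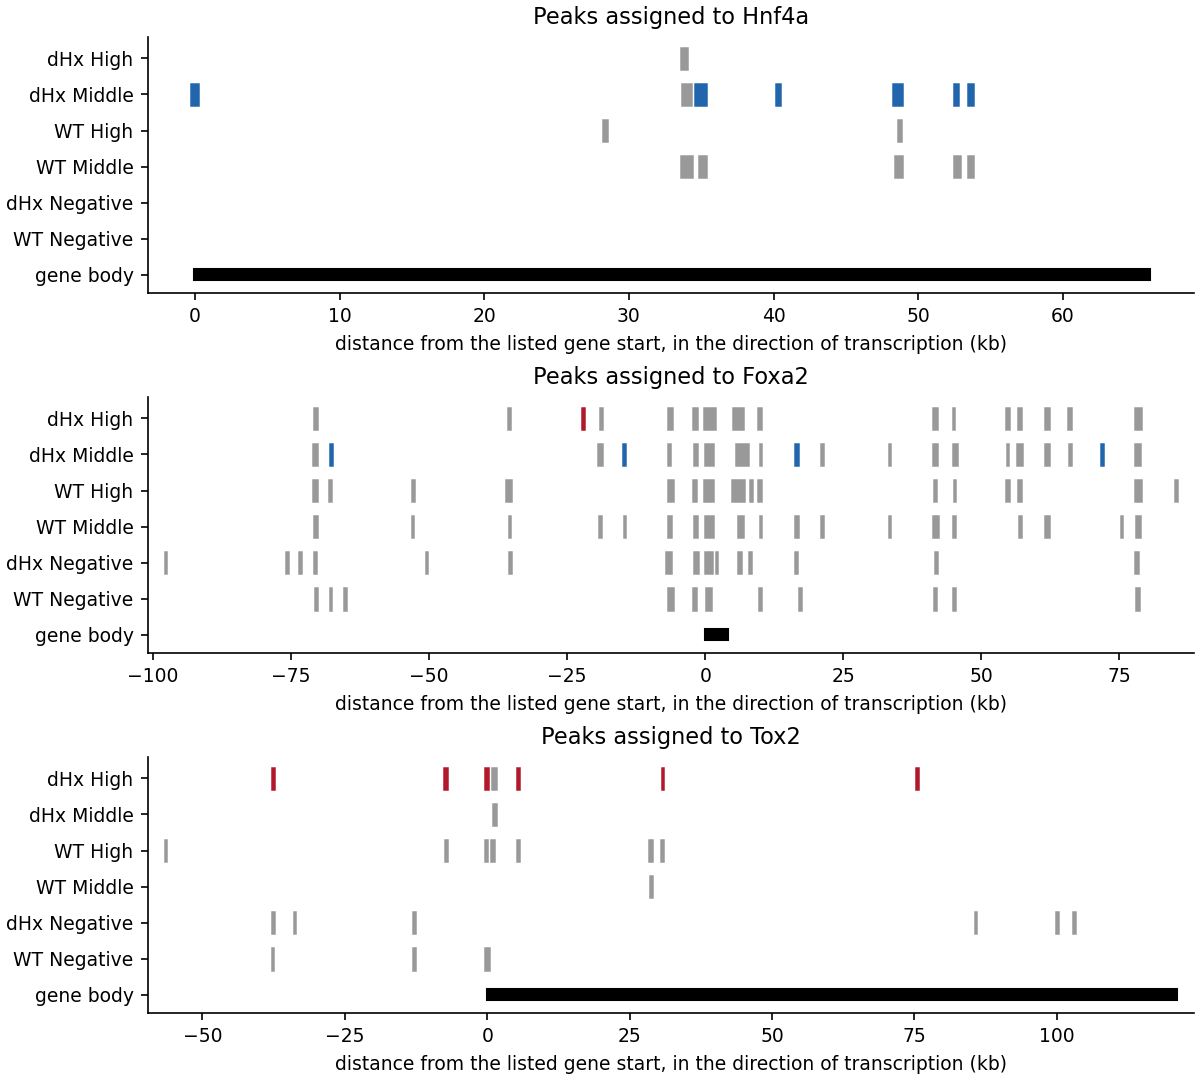
Peaks of all 6 lists assigned to Hnf4a (top), Foxa2 (middle) and Tox2 (bottom), by distance from the listed gene start in kb in the direction of transcription; the black bar is the gene body. Coloured boxes are top peaks in 1 dHx list only (red dHx High, blue dHx Middle) and grey boxes are all other peaks. Hnf4a has 6 blue boxes, Tox2 6 red ones, and Foxa2 1 red and 4 blue.

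The largest excess on the Middle side fell mostly in regions of repeated gene copies. Gm14410 had 15 Middle-only and no High-only top peak, Gm4724 11 and Gm21119 10, and 8 of the 10 genes lay in or within 100 kb of one of 6 bins of 1 Mb that held over 10 times the median number of peaks. These bins held 215 of the 4748 Middle-only and 11 of the 3954 High-only top peaks. Reads from near-identical copies can be placed on any of them, so counts at these genes are uncertain. Outside them, St6galnac3, a sialyltransferase, had 9 Middle-only of 12 top peaks and 1 High-only of 4, all 9 inside the gene, with a WT Middle peak at 7 and a WT High peak at 4. Its strongest Middle-only peak, chr3:153687151-153687849, was in WT Middle and both Negative lists and not in WT High.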

How the data were processed

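ATAC-seq, which inserts adapters into open chromatin with a transposase, was run on 2 biological replicates per group. The authors deposited 1 peak list per group on mm10, named as pooled in the peak names of the files. The submitters' processing notes name the tools STAR, version 2.5.2a, and MACS2. Their steps and parameters, like the read totals, remain not given in the sources used here. Groups come from the genotype and RFP labels. For the Middle samples of the mutant, replicate numbers differ between title and replicate label, which does not touch pooled lists. The score column in the deposited files has no name and was read as −log10 of a p or q from its values, which step like a Poisson tail. A background in mean pileup per base was fitted to the 40 lowest distinct scores of each list; it tracks depth between lists only where the peak caller ran with equal settings.

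Duplicate intervals were merged and autosomes kept. Overlaps, gene assignment (nearest RefSeq protein-coding gene within 100 kb, GRCm38.p6) and Clopper-Pearson intervals at the 95% level were computed with Python 3.11.15, numpy 2.4.6, pandas 2.3.3 and scipy 1.17.1, and tested on simulated peaks. Ties at the 20000th score were broken by chromosome and start. The 10 gene lists hold 249 genes, 248 of them on autosomes. Members and lists were chosen with earlier results of these data known. Named genes are Foxa2, up to 3 members per list and side with the most High-only or Middle-only top peaks, per direction the 10 genes of greatest difference in number, and the 10 strongest peaks of each class, with priority to endoderm, node and epithelial lists. Alternatives changed the overlap, the chromosomes, the number of top peaks, ties, peak-dense bins, score and gene assignment.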

Additional observations from a re-analysis of the deposited data

How the results depend on the processing

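With 1 pooled list per gate no library could be left out, and intervals cover counting error only. Read totals are unknown, so how far depth limits weak peaks was not tested. No paired analysis was possible because each peak list pools both samples of its group. The shares depended on how peaks were matched and how many were taken. The whole-list shares (38.6% High-only, 40.7% Middle-only) became 52.9% and 54.8% when the overlap had to cover 50% of both peaks, 36.5% and 38.5% when peaks within 500 bp counted as shared, 34.2% and 39.6% at a score of at least 5, and 39.8% and 39.4% with lists of equal length, the only one of these that put the High share first. Without peak-dense bins the whole-list Middle-only share was 39.6%. The top-20000 shares (19.8% and 23.7%) became 34.7% and 37.3% at 50% overlap, 18.9% and 22.9% within 500 bp, 22.9% and 24.9% with all tied peaks, 8.12% and 13.9% for the top 10000, 2.90% and 8.30% for the top 5000, and 37.3% and 37.1% when looked up in the other top 20000. The High-only share was 19.0% with X and Y and 20.3% without peak-dense bins.

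Presence in the WT lists kept its order in every setting run. High-only peaks were in WT High at 41.1% (whole lists), 50.9% (50% overlap), 72.4% (top 10000) and 56.5% (ties), and in WT Middle at 25.3%, 33.4%, 60.5% and 38.7%. Middle-only peaks were in WT High at 33.4% (whole lists), 41.4% (50% overlap) and 53.6% (top 10000), and in WT Middle at 47.7%, 57.3% and 82.5%. Near a start lay 18.4% (whole lists) and 34.4% (50% overlap) of the High-only peaks, and 8%, 18.9% and, for the top 10000, 4.32% of the Middle-only ones. Of the 10 gene lists, visceral endoderm had the higher Middle share and lateral and cardiac mesoderm the higher High share in all 7 alternatives. All 7 used the dHx lists, and in WT lateral and cardiac mesoderm had the higher Middle share. Leaving out peak-dense bins changed no count of any list, so that alternative could not move a side. For lateral and cardiac mesoderm the 500 bp setting also left the counts at 11 of 40 and 8 of 40. For the top 10000 that list had 1 High-only of 14 and 0 Middle-only of 11. The remaining lists changed sides in at least 1 alternative: definitive endoderm with every gene within 100 kb and for the top 10000, and node and notochord with every gene within 100 kb and in the whole lists. The epithelial list kept its side in 2 of 7, and in both its counts were the unchanged 16 of 93 and 18 of 97. The top 10000 for places, WT lists and gene lists, peak-dense bins for places and gene lists, and ties for all 3 were added after seeing the data.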

Other observations

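Peaks on the X chromosome, which were outside the comparison, differed between the gates. The dHx High list held 1059 X peaks (2.85% of its peaks, 2.69 to 3.03) and the dHx Middle list 1510 (3.86%, 3.67 to 4.06). Of these, 352 of the dHx High peaks (33.2%) had no dHx Middle partner, and 809 of the dHx Middle peaks (53.6%) had no dHx High partner. On the autosomes these shares were 38.6% and 40.7%, so the X share was the lower in dHx High and the higher in dHx Middle. In WT embryos the X share was 3.27% in High and 8.66% in Middle, with 4222 X peaks in WT Middle. The Negative lists had 2.86% in WT and 4.32% in dHx. Embryos of both sexes were mixed, and the share of each sex in a list was not measured.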
